A study of Mus musculus with 21 samples.

Results

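Day 5 SKOM cells grown with vitamin C were set against mouse embryonic fibroblasts (MEFs) carrying the same constructs, in 5 pairs of RNA libraries, 10 of the 21 libraries of the series. SKOM cells are MEFs that had been infected with Oct4 (gene Pou5f1), Sox2, Klf4 and Myc retroviruses and stood on the way to induced pluripotent stem cells. They had been harvested on day 5 in mouse embryonic stem cell medium with leukaemia inhibitory factor, serum and vitamin C (Vc+). MEFs came from ICR embryos of day 13.5, were at passage 2, had been infected for 48 hours and were kept in a fibroblast medium with less serum; the day of their harvest was not given. The 5 matched constructs, all delivered by retrovirus in both settings, were the Flag and shLuc vectors (taken here as the control), Dnmt1, a hairpin against Dnmt1 (shDnmt1), that hairpin with one against p53 (shp53+shDnmt1), and Tet1CD, labelled Tet1-CD in MEFs. Dnmt1 is the maintenance DNA methyltransferase, and Tet1 oxidises 5-methylcytosine. Each combination was sequenced in 1 library, and the labels do not say whether any came from separate embryos or cultures. The factors, medium, vitamin C and time in culture all changed together between the settings and cannot be told apart.

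When fibroblasts are reprogrammed, the early steps are known to include loss of the fibroblast programme, faster division and a turn from mesenchymal to epithelial character, while most endogenous pluripotency genes come on later. Vitamin C is a cofactor of iron-dependent dioxygenases, among them the Tet enzymes, many histone demethylases and the prolyl hydroxylases that mature collagen. It is known to raise reprogramming efficiency.

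The values are whole numbers that the authors had normalized within each table, so sequencing depth is unknown. The 2 tables shared 10777 genes. The median over all listed genes was 226 in the Flag+shLuc Vc+ library and 208 in every MEF library. A ratio below is the log2 of (value + 5) in the SKOM Vc+ library over the MEF library of the same construct, centred on the median of that pair. Centring removed a shift of 0.30, 0.31, 0.30, 0.29 and 0.24 for Flag+shLuc, Dnmt1, shDnmt1, shp53+shDnmt1 and Tet1CD. Values per library follow this order of constructs throughout. A gene was called higher or lower in SKOM Vc+ cells where the ratio had the same sign in 5 of 5 pairs and the median ratio was at least 1 in size, which is 2-fold. The tables were normalized separately and had 1 library for each construct, so no p-value was computed between the settings, and the spread is given as the SD of the 5 pair ratios.

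The labels were checked on the targeted genes. Dnmt1 had values of 2346, 2381, 1154, 1319 and 1080 in the SKOM Vc+ libraries, against 957, 975, 208, 410 and 458 in the MEF libraries. It was lower with the hairpin in both settings, it was also lower in both Tet1CD libraries, and the library labelled Dnmt1 lay next to the control in each. Trp53, the p53 gene, had values of 1194, 1365, 1304, 621 and 962 in SKOM Vc+ cells and 1008, 1008, 966, 186 and 888 in MEFs, lowest in each setting with the shp53 hairpin. Tet1 had values of 54, 65, 41 and 88 in the 4 SKOM Vc+ libraries without Tet1CD and 3129 with it, and was not analysed in MEFs. All 12 fibroblast identity markers were listed in both settings. Their summed values were 49385, 34237, 45727, 29995 and 51369 in SKOM Vc+ cells and 127672, 127328, 134874, 77730 and 130069 in MEFs. Of the 12 markers, 3 held the highest value of a table in some library, which limits these sums. The sums served here to check the fibroblast origin of the cells, and the change of the markers between the settings is described below.

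Of the shared genes, 6803 (63.1%) had the same sign in all 5 pairs, 3363 of them higher in SKOM Vc+ cells and 3440 lower. Called higher were 724 genes (6.72%), and called lower were 1163 (10.8%). These shares are the background for every count of called list members below. Without the centring the split was 1395 higher and 771 lower, so which side holds more genes depended on it. The values of the 5 SKOM Vc+ libraries lay entirely above those of the 5 MEF libraries for 601 of the genes called higher and entirely below for 823 of those called lower. Over all shared genes, called or not, the groups were apart in this way for 30.7% and 11.0%, on values without centring. Changes of at least 4-fold were seen for 128 genes called higher and 326 called lower, and of at least 8-fold for 32 and 92. The extremes of abundance were limited: 27 genes held the highest value of their table in some library, 28926 in Vc+ and 38803 in MEFs, which limits their ratios.

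**Figure D1:**
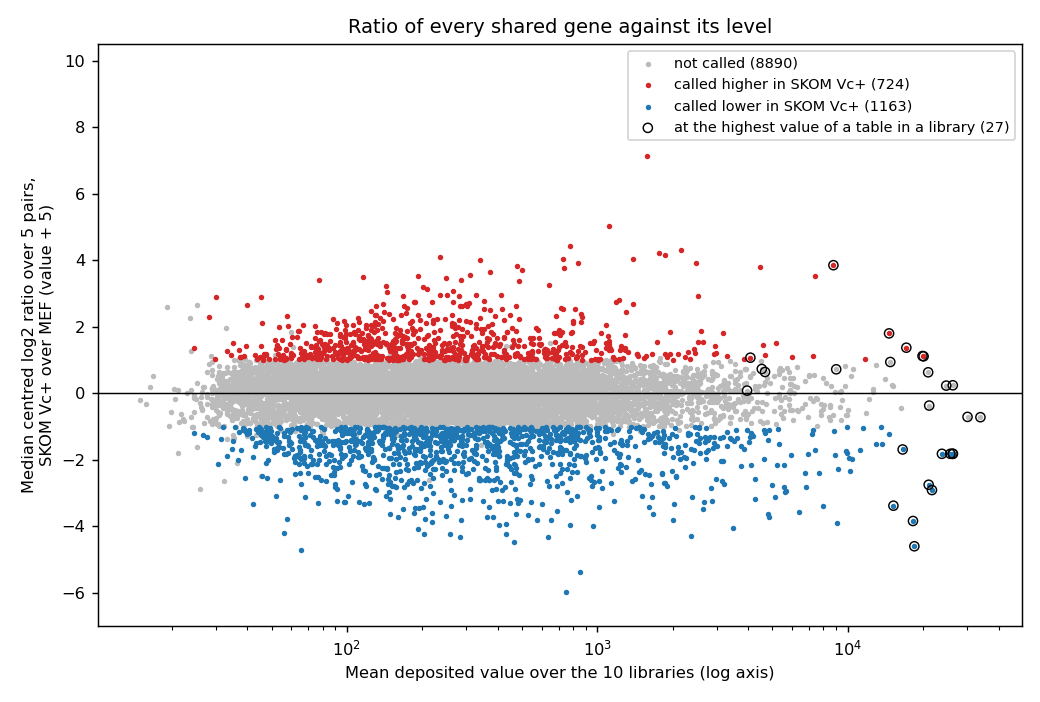
Each point is one of the 10777 shared genes, with the mean deposited value over 10 libraries on a log x axis and the median centred log2 ratio of SKOM Vc+ over MEF on the y axis. Red points are the 724 genes called higher in SKOM Vc+ cells, blue points the 1163 called lower, grey points the rest, and open circles the 27 genes at the highest value of a table; calls in both directions span the whole range of levels.

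The gene that stood highest in SKOM Vc+ cells was Itgb4 (chr11:115974709-116008412), the integrin beta 4 subunit of hemidesmosomes. It had values of 3259, 3167, 3627, 2156 and 3431 in SKOM Vc+ cells, against 14, 22, 16, 5 and 127 in MEFs, and a median ratio of 7.12 (mean 6.55 ± 1.21, SD, n = 5 pairs). All 5 SKOM Vc+ libraries lay above every MEF library, and the Tet1CD library was the highest of the MEFs. Cobl (chr11:12236608-12464804), an actin nucleator, had values of 2163, 2201, 2424, 1583 and 2508 in SKOM Vc+ cells and 43, 55, 45, 35 and 67 in MEFs. Its median ratio was 5.02 (mean 5.06 ± 0.19), with the smallest SD among the 15 genes with the largest ratios. Dsp (chr13:38151328-38198577), the desmosomal plaque protein desmoplakin, had values of 2418, 2475, 3018, 2349 and 2772 in SKOM Vc+ cells, against 110, 116, 160, 32 and 366 in MEFs, a median ratio of 4.05 (mean 4.08 ± 1.08). Prelp, a proteoglycan of the small leucine-rich family, stood at 4.32 (mean 4.31 ± 0.48). Syne2, which links the nuclear envelope to actin, stood at 4.23 (mean 4.09 ± 0.36). Abca1, the cholesterol efflux transporter, stood at 4.16 (mean 3.78 ± 1.17).

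Also among the 15 largest ratios in this direction were Akr1c18, a steroid dehydrogenase (4.42), Acsbg1, an acyl-CoA synthetase (4.10), and Il1rn, the interleukin 1 receptor antagonist (4.04). Msln, the surface protein mesothelin (3.93), Cmah, which makes N-glycolylneuraminic acid (3.91), the teneurin Tenm4 (3.83), the scaffold protein Iqgap2 (3.78), Klf4 and Laptm5 completed the 15. The groups did not overlap for any of these genes, which had been picked for the largest ratios. Over all shared genes, SKOM Vc+ values lay wholly above MEF values for 30.7%, on values without centring. Laptm5, a lysosomal protein of leukocytes, had a median ratio of 4.0 but uneven libraries, with values of 277, 246, 259, 230 and 2156 in SKOM Vc+ cells and 6, 59, 65, 7 and 89 in MEFs. Klf4, itself one of the delivered factors, had values of 7995, 10302, 9344, 10301 and 3886 in SKOM Vc+ cells and 526, 459, 520, 603 and 568 in MEFs (median ratio 3.79). Myc had values of 18104, 13537, 18104, 13535 and 6109 in SKOM Vc+ cells and 839, 933, 678, 1049 and 760 in MEFs (3.54). RNA from the virus and RNA from the cell's own gene cannot be told apart in these values. Both factors were lowest in the Tet1CD library among the SKOM Vc+ libraries, as were Pou5f1 and Sox2.

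On the other side, Il1rl1 (chr1:40429570-40446723), the receptor of interleukin 33, had values of 34, 25, 30, 23 and 67 in SKOM Vc+ cells, against 1987, 1962, 969, 1935 and 471 in MEFs. Its median ratio was -5.98 (mean -5.36 ± 1.44). Cxcl12 (chr6:117168535-117175069), a chemokine of stromal cells, had values of 56, 37, 41, 49 and 72 in SKOM Vc+ cells and 1735, 1622, 1622, 1814 and 1450 in MEFs, a median ratio of -5.36 (mean -5.20 ± 0.44). Every SKOM Vc+ library was far below every MEF library for both. Bgn (chrX:73483602-73492746), the matrix proteoglycan biglycan, had values of 1962, 1547, 1588, 1159 and 3168 in SKOM Vc+ cells, against the highest value of 38803 in 4 MEF libraries and 19818 in the shp53+shDnmt1 one. Its median ratio of -4.60 therefore rests on capped MEF values. Smoc2, a matrix protein of the SPARC family, had values of 51, 40, 38, 28 and 115 in SKOM Vc+ cells and 910, 807, 949, 691 and 1010 in MEFs (-4.48).

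The remaining genes of the 15 lowest were Ankrd1 (-4.32), S1pr3, a sphingosine-1-phosphate receptor (-4.31), Sdpr, a caveolar protein (-4.29), Dlk1, a Notch-like surface protein of mesenchymal precursors (-4.24), Fosb (-4.22), Lyz2 (-4.22), Clec4d (-4.21), Adm, the peptide adrenomedullin (-4.09), Spp1, the matrix protein osteopontin (-4.05), Nrp1, a co-receptor of semaphorins and VEGF (-3.98), and Cnn1 (-3.95). Lyz2, a lysozyme of macrophages, was the one among the 30 named genes whose groups overlapped. It had values of 18, 19, 21, 8 and 53 in SKOM Vc+ cells and 129, 666, 694, 53 and 912 in MEFs. Clec4d is a lectin of myeloid cells and had values of 1, 0, 1, 37 and 41 in SKOM Vc+ cells, against 85, 108, 111, 60 and 118 in MEFs.

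**Figure D2:**
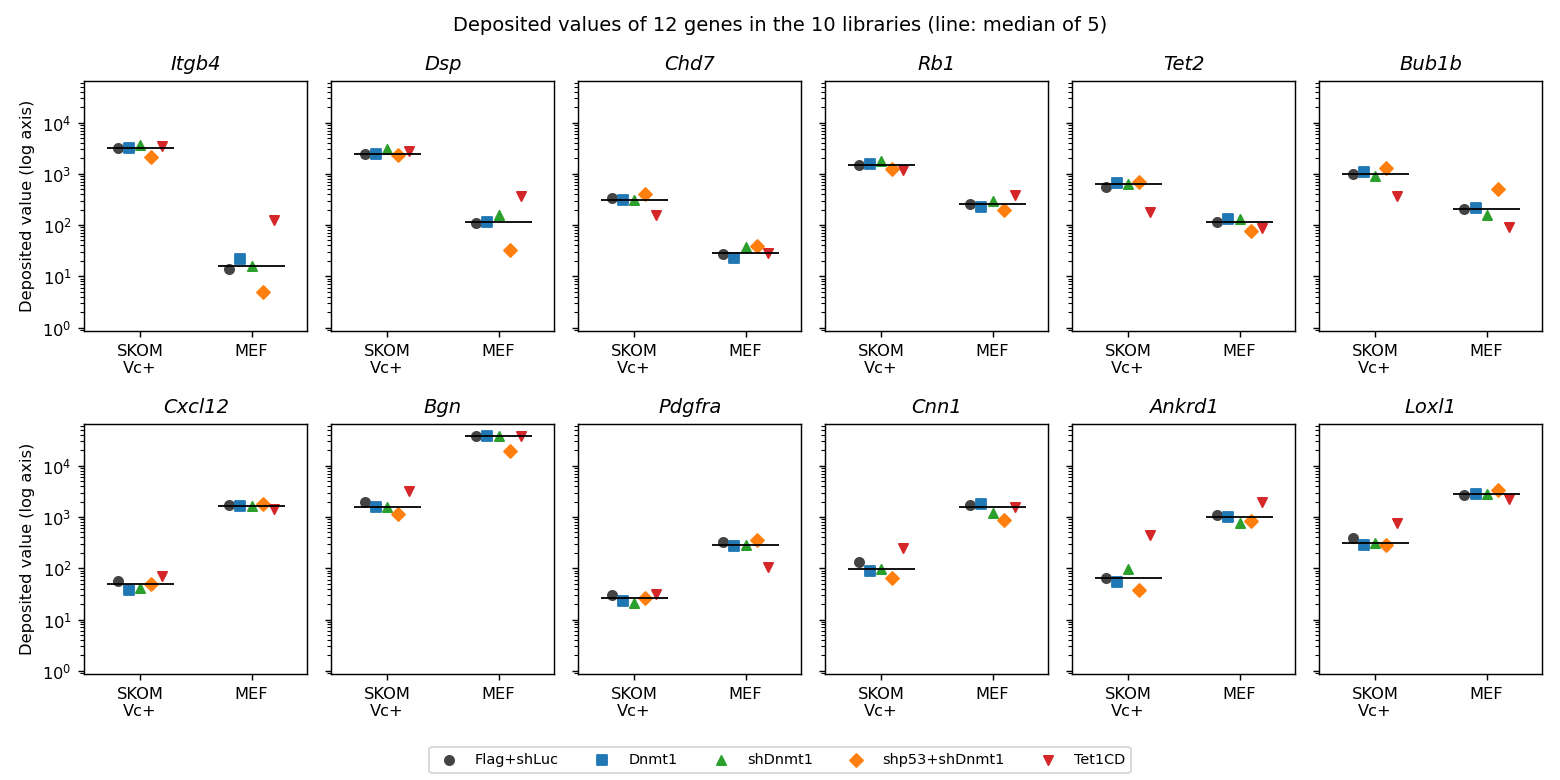
Deposited values (log y axis) of 12 genes in the 5 SKOM Vc+ libraries (left in each panel) and the 5 MEF libraries (right), with 1 symbol for each construct and a line at the median. The 6 genes of the upper row had higher medians in SKOM Vc+ cells and the 6 of the lower row higher medians in MEFs; the groups touch only for Bub1b.

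Fibroblast identity genes were mostly lower in SKOM Vc+ cells: 9 of the 12 markers were called lower and none higher, with a median ratio of -2.62 against 0.01 over all shared genes (quartiles -0.45 and 0.41). Pdgfra, the platelet-derived growth factor receptor alpha, had values of 30, 23, 21, 26 and 32 in SKOM Vc+ cells and 324, 275, 288, 362 and 105 in MEFs (median ratio -3.63). Postn, the matrix protein periostin, had values of 351, 285, 299, 248 and 344 in SKOM Vc+ cells and 2800, 2866, 3466, 3848 and 2203 in MEFs (-3.62). Fbln2 (-3.84) and the collagen chain Col1a2 (-2.75) were lower too, with MEF values at or near the ceiling. The markers were not lower as a block. Vim, the intermediate filament of mesenchymal cells, had a median ratio of -0.37, and the small proteoglycans Dcn and Lum had -0.31 and -0.52; none of these 3 was called. In bulk RNA, fewer fibroblasts and less of each RNA per cell cannot be told apart.

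Among the transcription factors of fibroblasts and mesenchyme, 11 of 23 shared members were called lower and 1 higher (median ratio -1.06). Snai2 and Snai1, repressors of epithelial genes, had median ratios of -3.19 and -2.04. Snai2 had values of 50, 46, 46, 48 and 71 in SKOM Vc+ cells, against 403, 399, 396, 296 and 309 in MEFs. Foxc2 (-3.59), Osr1 (-3.44) and Twist2 (-2.08), regulators of mesenchyme development, were also called lower. Twist1 (-0.47), Zeb1 (-0.90) and Zeb2 (-0.85), known for the same mesenchymal programme, stayed short of the 2-fold limit. Meox2, a homeobox gene of mesoderm, was the exception, with values of 531, 540, 473, 464 and 247 in SKOM Vc+ cells and 116, 112, 112, 138 and 91 in MEFs (1.73). Osr2, Meox1 and Six2 had values in the MEF table alone, all of 57 or less. Of the Hox genes, which keep the positional identity of fibroblasts, 5 of 25 were called lower and none higher, against 10.8% called lower over all shared genes, with a median ratio of -0.34. The 5 were Hoxb9 (-2.03), Hoxb8 (-1.70), Hoxa11 (-1.55), Hoxc10 (-1.15) and Hoxd10 (-1.15).

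The matrix genes followed. Of 20 shared collagen genes, 11 were called lower and 2 higher (median ratio -1.59). Col12a1 had values of 3126, 1481, 1458, 1018 and 5715 in SKOM Vc+ cells and 15086, 15086, 12462, 9032 and 15086 in MEFs (-3.39). Col8a1 stood at -3.27 and Col5a2, with MEF values at the ceiling, at -3.38. Col15a1, a chain of basement membrane zones, had values of 250, 191, 193, 191 and 337 in SKOM Vc+ cells, against 34, 36, 55, 72 and 24 in MEFs (1.95). Matrix glycoproteins and proteoglycans had 17 of 28 members called lower and 2 higher (-1.61). Ltbp1, which holds latent TGF-beta in the matrix, stood at -3.33 and the basement membrane protein Nid1 at -2.95. Fn1, fibronectin, was at the ceiling of 38803 in all 5 MEF libraries and at 13571, 13571, 13571, 8461 and 13571 in SKOM Vc+ cells (-1.82). The 2 members called higher were Lama4, a laminin chain (values of 2508, 2113, 2113, 1737 and 2482 in SKOM Vc+ cells and 263, 250, 316, 198 and 195 in MEFs, 2.81), and the fibrillin Fbn2 (2.06).

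Enzymes that modify collagen include prolyl and lysyl hydroxylases, which need vitamin C, and lysyl oxidases, which cross-link the fibres and need copper. Of 22 shared members, 15 were called lower and none higher (median ratio -1.27). Lox and Loxl1, both lysyl oxidases, had median ratios of -3.58 and -3.43. Loxl1 had values of 396, 290, 313, 280 and 766 in SKOM Vc+ cells, against 2742, 2788, 2788, 3438 and 2228 in MEFs. The prolyl 4-hydroxylase subunit P4ha1 had values of 371, 364, 346, 382 and 440 in SKOM Vc+ cells and 1079, 1103, 1065, 915 and 1161 in MEFs (-1.83, mean -1.76 ± 0.17). P4ha2 (-1.44) and P4ha3 (-2.46) were called lower as well. Genes of vitamin C uptake and of other dioxygenases had no common direction, with 2 of 16 called higher, 3 called lower and a median ratio of -0.20. Slc2a3, a carrier of glucose and of oxidised vitamin C, stood at 1.71, and Egln3, the oxygen-sensing prolyl hydroxylase of HIF, at 2.10. The vitamin C transporter Slc23a2 had values of 251, 242, 277, 227 and 395 in SKOM Vc+ cells and 140, 136, 181, 129 and 221 in MEFs, a ratio of 0.50 (mean 0.48 ± 0.11) that did not reach 2-fold.

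All 20 smooth muscle and contractile genes were called lower, against 10.8% of all shared genes, and their median ratio was -2.22. The SKOM Vc+ libraries lay wholly below the MEF libraries for 13 of the 20, against 11.0% of all shared genes, on values without centring. Cnn1 (chr9:22099281-22109630), calponin of smooth muscle, had values of 132, 87, 98, 64 and 249 in SKOM Vc+ cells, against 1708, 1813, 1172, 893 and 1585 in MEFs. Its median ratio was -3.95 (mean -3.85 ± 0.62). Lmod1, an actin filament nucleator of smooth muscle, stood at -3.71, and Tagln, an actin-binding protein, at -3.12. Tagln had values of 1281, 979, 1134, 765 and 2415 in SKOM Vc+ cells and 9036, 10832, 7652, 7156 and 9981 in MEFs. Acta2, smooth muscle actin, was the gene with the widest spread. It had values of 8456, 6406, 5728, 3129 and 18111 in SKOM Vc+ cells, against the ceiling of 38803 in 4 MEF libraries and 19827 in the Tet1CD one, and pair ratios between -3.92 with shp53+shDnmt1 and -0.37 with Tet1CD. The smallest member, the non-muscle myosin Myh9, stood at -1.0. The 3 shared skeletal muscle genes were called lower as well. Acta1 stood at -3.41, Des at -2.80 and Tnnt2 at -1.11. The summed values of the skeletal muscle list were 136, 99, 118, 57 and 461 in SKOM Vc+ cells, over 4 listed genes. In MEFs they were 755, 690, 688, 346 and 1311, over 3 listed genes. Their part in the result was not tested.

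**Figure D3:**
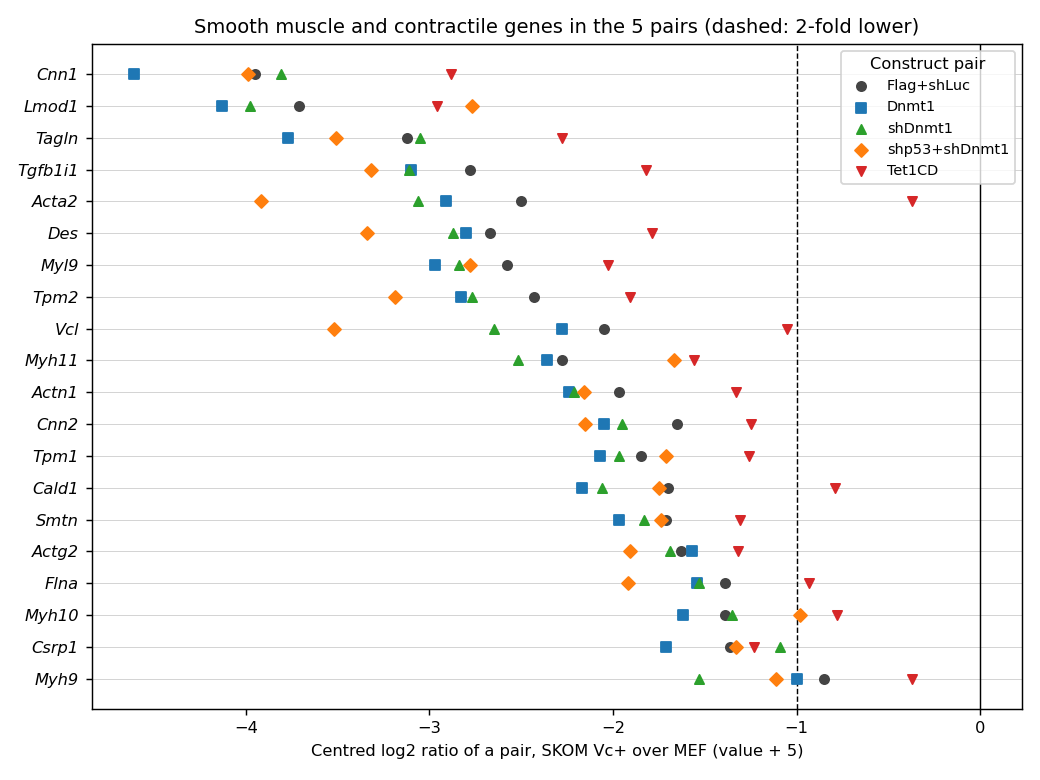
Centred log2 ratios of SKOM Vc+ over MEF (x axis) of the 20 smooth muscle and contractile genes in each of the 5 pairs, with a dashed line at 2-fold lower. All points lie below 0, and the Tet1CD pair (red) is nearest to 0 for most genes.

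Many contractile genes are known targets of serum response factor, which binds the CArG box. The 250 bases before the start of a gene, from RefSeq promoters on GRCm38.p6 with their starts read on the gene's strand, were found for 16 of the 20 genes. A CArG box on either strand was present in 3 of the 16 (18.8%), against 1.47% of 32851 promoters in RefSeq. The 3 are shown with the box in capitals, because they are the members of this list with a match: Vcl, the adhesion protein vinculin (-2.28), Myl9, a myosin regulatory light chain (-2.78), and Cnn2, a calponin (-1.95). Vcl lies at chr14:20929148-20929397, Myl9 at chr2:156775214-156775463 and Cnn2 at chr10:79988350-79988599, all on the plus strand.
Vcl: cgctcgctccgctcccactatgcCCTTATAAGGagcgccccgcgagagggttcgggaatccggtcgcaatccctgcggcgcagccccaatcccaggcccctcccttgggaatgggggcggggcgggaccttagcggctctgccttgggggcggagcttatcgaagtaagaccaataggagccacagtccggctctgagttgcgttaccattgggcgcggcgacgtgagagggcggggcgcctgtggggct
Myl9: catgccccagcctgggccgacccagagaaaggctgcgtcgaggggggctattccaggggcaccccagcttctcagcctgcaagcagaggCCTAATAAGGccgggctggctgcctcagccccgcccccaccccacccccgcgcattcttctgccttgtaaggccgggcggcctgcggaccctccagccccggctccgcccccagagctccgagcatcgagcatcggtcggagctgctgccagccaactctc
Cnn2: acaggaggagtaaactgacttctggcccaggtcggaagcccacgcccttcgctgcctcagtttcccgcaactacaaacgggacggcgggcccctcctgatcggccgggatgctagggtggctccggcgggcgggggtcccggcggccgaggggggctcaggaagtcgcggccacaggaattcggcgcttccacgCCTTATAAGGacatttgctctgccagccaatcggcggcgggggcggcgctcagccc
A match is a string of letters and not a measured binding site, and a gene without one may hold it elsewhere.

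Targets of TGF-beta and of the Hippo effector YAP, which report on matrix tension and fibroblast activation, had 16 of 21 shared members called lower and none higher (median ratio -1.66). Ankrd1 (chr19:36111965-36119844), a YAP target, had values of 64, 53, 98, 38 and 453 in SKOM Vc+ cells and 1113, 990, 755, 827 and 1981 in MEFs (-4.32, mean -3.77 ± 0.96). The YAP targets Ctgf (-2.83) and Cyr61 (-1.66) and the co-receptor Tgfbr3 (-2.69) were also called lower. The ligands Tgfb1 and Tgfb3 had ratios of -2.10 and -2.37, and Tgfb2 of -0.14 was not called. Immediate early genes had 7 of 14 members called lower and none higher (-1.06). Fosb had values of 20, 23, 29, 21 and 43 in SKOM Vc+ cells and 447, 417, 511, 132 and 380 in MEFs, and its relative Fos stood at -1.99.

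Chemokines and other secreted factors of fibroblasts had 12 of 23 shared members called lower and 1 higher (median ratio -1.38). Beside Il1rl1 and Cxcl12, Plau, the urokinase protease, stood at -3.65 and the IGF-binding protein Igfbp7 at -3.48. Csf1, the growth factor of macrophages, had values of 613, 550, 519, 466 and 1587 in SKOM Vc+ cells and 4389, 4247, 4671, 3983 and 7650 in MEFs (-3.25). Igfbp3 went the other way, with values of 2501, 1962, 2044, 1328 and 3721 in SKOM Vc+ cells and 368, 391, 381, 137 and 175 in MEFs (2.45). Of 18 macrophage and leukocyte markers, 5 were listed in Vc+ and 7 in MEFs, with summed values of 445, 409, 493, 338 and 3250 in SKOM Vc+ cells and 240, 1004, 1027, 107 and 1461 in MEFs. Itgam and Laptm5 of that list were called higher and Lyz2 lower, Ptprc, the leukocyte antigen CD45, was listed at 0 in the SKOM Vc+ control, and Csf1r and C1qa were listed in MEFs alone. Its sum was highest with Tet1CD in both settings, and its part in the secreted factors was not tested.

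Genes of epithelial cells ran against the matrix genes. Of 10 shared members, 5 were called higher and 1 lower (median ratio 1.07, against 6.72% called higher over all shared genes). Beside Itgb4 and Dsp these included St14, an epithelial membrane protease (2.67), and the tight junction protein Tjp1 (1.21). Tjp1 had values of 3886, 4026, 4141, 3515 and 2469 in SKOM Vc+ cells, against 1363, 1362, 1557, 1104 and 1119 in MEFs. Krt19 was called lower (-1.35). A further 9 members had values in the Vc+ table alone, for which no ratio can be given. Cdh1, the adhesion protein E-cadherin, had values of 193, 249, 296, 293 and 115, and Epcam 140, 187, 235, 332 and 44 in SKOM Vc+ cells. Cldn3, Krt8, Pkp1, Esrp1, Esrp2, Grhl3 and Lamb3 were the others. Of the 9, all but Grhl3 and Lamb3 had their lowest value in the Tet1CD library. The keratins Krt18 and Krt7 had values in the MEF table alone, 21, 15, 27, 27 and 134 and 48, 32, 49, 80 and 246 in order of the constructs. Of 11 keratinocyte markers, Perp was shared and 4 were listed in Vc+ alone: Krt14 had values of 270, 284, 473, 283 and 475, Krt6a 73, 64, 84, 25 and 456, Sfn 57, 50, 90, 55 and 423, and Krt17 18, 26, 57, 28 and 71.

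Pluripotency genes were listed in part. Of 39 members, 9 were shared, 11 had values in Vc+ alone, 1 in MEFs alone and 18 were not analysed in either. Pou5f1 had values of 4772, 6109, 5359, 6109 and 3259, and Sox2 of 3885, 4282, 4282, 4583 and 2500, in SKOM Vc+ cells, where both had been delivered by virus. Among genes that were not delivered, L1td1, an RNA-binding protein of stem cells, had values of 1520, 1622, 1678, 2253 and 620. Tdh, Trim71, Tfcp2l1, Nr0b1, Alpl, Gdf3 and Dppa2 were at 171 or less in every SKOM Vc+ library. Dppa2 was listed at 0 in 3 libraries, at 4 with shp53+shDnmt1 and at 46 with Tet1CD. Of the 9 shared members 5 were called higher and 1 lower (median ratio 1.08). Their pair medians were uneven, 0.28, 1.08, 0.49, 1.22 and 0.42, and that of the control pair lay within the quartiles of all shared genes (-0.45 and 0.41). The SKOM Vc+ libraries lay wholly above the MEF libraries for 2 of the 9, against 30.7% of all shared genes, on values without centring. The remodeller Chd7 had values of 340, 308, 311, 406 and 154 in SKOM Vc+ cells and 27, 23, 37, 39 and 29 in MEFs (2.93), and Jarid2, a Polycomb partner, stood at 1.79. Mybl2 (1.65), Rif1 (1.28) and Lin28b (1.08) were the others called higher. Klf5 was called lower (-1.32), and Klf2 was listed in MEFs alone.

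Of the 1244 genes listed in Vc+ alone, 468 had a value of at least 32 in all 5 SKOM Vc+ libraries. Highest after the factors were Podxl, a sialomucin of stem cells, with values of 3888, 3888, 4283, 4436 and 2636, then L1td1, the long noncoding RNA Miat, the kinase Dclk2, the acetyltransferase Nat8l and Plekhh1. In 163 of the 1244 the Tet1CD library alone reached 32. Of the 8 germline genes listed in Vc+ alone, 6 were among these 163, against 13.1% of the 1244. Each of the 163 was listed because a Vc+ library not used here also reached 32. Those unused libraries all carry Tet1CD, so the genes were listed only through libraries with Tet1CD. The count describes the list and tests nothing. Piwil2 had values of 11, 13, 18, 20 and 215, Tex19.1 of 0, 0, 2, 10 and 129 and Asz1 of 12, 0, 16, 0 and 114. Of the 375 genes listed in MEFs alone, 97 reached 32 in all 5 libraries. Highest were Cdh3, P-cadherin, with values of 490, 506, 363, 414 and 340, the pentraxin Nptx1, Myom1, the elastic fibre protein Mfap4 (288, 256, 237, 157 and 170), Col10a1, Gng2, Lrrc17 and Mn1. A gene entered a table where at least 2 of its libraries reached 32, so absence from one is no measured 0.

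Of 34 genes of G1/S and replication, 7 were called higher and none lower (median ratio 0.78), and of 31 genes of G2/M and mitosis 6 were called higher and none lower (0.56), against 6.72% called higher over all shared genes. The remaining members did not pass in either direction. Mcm10, which helps to start replication forks, had values of 498, 555, 493, 668 and 188 in SKOM Vc+ cells, against 102, 122, 97, 248 and 49 in MEFs (1.83, mean 1.70 ± 0.35). Bub1b, a spindle checkpoint kinase, had values of 982, 1092, 910, 1278 and 377 in SKOM Vc+ cells and 210, 215, 156, 496 and 92 in MEFs (1.90, mean 1.78 ± 0.44). Mki67, the proliferation antigen, stood at 1.22 (mean 1.19 ± 0.74). The pair medians of the G1/S list were 0.61, 0.89, 1.09, 0.09 and 0.68, and those of the G2/M list 0.52, 0.83, 1.11, -0.07 and 0.36. In the shp53+shDnmt1 pair both lists thus stood near 0, and in that MEF library Mcm10, Bub1b and Mki67 had their highest MEF value. The groups overlapped for every member of both lists that was called higher. Rb1, the retinoblastoma brake on G1/S, had values of 1518, 1587, 1781, 1269 and 1173 in SKOM Vc+ cells and 255, 229, 291, 200 and 385 in MEFs (2.30), and Cdk6 stood at 1.49. Cdkn2b, an inhibitor of Cdk4 and Cdk6, was called lower (-1.58). The p53 target genes had 1 of 24 called higher, Perp (1.49), and 3 lower, Plk2 (-1.52), Gadd45a (-1.27) and Pmaip1 (-1.05), and a median ratio of 0.07. Both counts lay near the shares over all shared genes, 6.72% higher and 10.8% lower, and are not read as results.

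Cell cycle promoters are known for CCAAT boxes and, in G2/M genes, for a CHR element with the letters TTTGAA. RefSeq promoters were found for 26 of the 31 G2/M genes. CCAAT was present on either strand in 21 of them (80.8%), against 33.8% of all 32851 promoters, and TTTGAA in 9 (34.6%), against 16.0%. The 2 motifs were counted apart, and neither contains the other. Bub1b and Kif11, a spindle motor (1.02), are shown as members called higher, with CCAAT in capitals for Bub1b and the CHR letters for Kif11, each read on the reverse strand as ATTGG and TTCAAA. Bub1b lies at chr2:118597961-118598210 and Kif11 at chr19:37376132-37376381, both on the plus strand.
Bub1b: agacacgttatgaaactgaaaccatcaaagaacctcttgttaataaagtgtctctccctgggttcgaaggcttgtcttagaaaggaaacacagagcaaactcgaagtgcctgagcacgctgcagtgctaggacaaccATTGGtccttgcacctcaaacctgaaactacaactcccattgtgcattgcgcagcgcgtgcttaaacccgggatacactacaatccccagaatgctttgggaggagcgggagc
Kif11: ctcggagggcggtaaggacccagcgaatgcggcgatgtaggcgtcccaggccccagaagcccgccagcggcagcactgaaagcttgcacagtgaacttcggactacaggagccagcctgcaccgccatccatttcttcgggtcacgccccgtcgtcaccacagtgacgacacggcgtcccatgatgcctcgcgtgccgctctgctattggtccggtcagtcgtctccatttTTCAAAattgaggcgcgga
These matches too describe letters in the window and no binding.

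Of 32 nucleolar and ribosome biogenesis genes, 29 had the same positive sign in 5 of 5 pairs, against 31.2% of all shared genes, but 2 reached 2-fold, Dkc1, of the pseudouridine synthase complex (1.29), and the RNA polymerase I subunit Polr1b (1.05). The list median was 0.56. Many of these genes are known Myc targets. Nucleotide synthesis enzymes had 5 of 27 called higher and none lower (0.54), among them Dut, which removes dUTP (1.60), Shmt1 (1.54) and Ppat (1.42). Dut had values of 729, 798, 784, 922 and 339 in SKOM Vc+ cells and 192, 188, 160, 351 and 125 in MEFs. Cholesterol synthesis had 3 of 22 called higher, Dhcr7 (1.46), Ebp (1.44) and Pmvk (1.08), and none lower (0.47). Glycolytic enzymes had 2 of 20 called higher and none lower (0.13): the lactate carrier Slc16a1 (1.72) and Pdk1, which brakes pyruvate entry into mitochondria (1.90). Respiratory chain genes had 1 of 36 called higher, Atp5b (1.03), and a median ratio of -0.02. Hypoxia-response genes had 4 of 20 called higher, Mxi1 (2.13), Egln3, Pdk1 and Stc2 (1.80), and 3 lower, Adm, P4ha1 and P4ha2. Over all shared genes, 6.72% were called higher and 10.8% lower. The counts called higher of the ribosome biogenesis, glycolytic and respiratory chain lists lay near or below these shares. So did the hypoxia count of lower genes. None of these counts is read as a result.

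Among chromatin genes, the DNA methylation machinery had 5 of 21 members called higher and 1 lower (median ratio 0.50). Tet2, which oxidises 5-methylcytosine as Tet1 does, had values of 545, 673, 640, 703 and 178 in SKOM Vc+ cells and 115, 133, 129, 78 and 89 in MEFs (1.97, mean 1.88 ± 0.74). Mbd4, a glycosylase that removes thymine from mismatches, stood at 2.05, Apobec1 at 1.54, the de novo methyltransferase Dnmt3a at 1.27 and Tet3 at 1.08. Dnmt1 had a ratio of 0.99 with Flag+shLuc, 0.97 with Dnmt1, 2.15 with shDnmt1, 1.38 with shp53+shDnmt1 and 0.99 with Tet1CD, a median of 0.99 just short of the limit. Dnmt3b had values of 48, 53, 55, 55 and 15 in the Vc+ table alone. Histone demethylases that use vitamin C had 1 of 17 called higher, Kdm7a (2.36), and none lower (0.40). That count of higher genes lay near the 6.72% of all shared genes and is not read as a result. Kdm7a had values of 508, 516, 516, 482 and 229 in SKOM Vc+ cells and 71, 77, 97, 48 and 75 in MEFs. Polycomb and remodelling genes had 7 of 30 called higher and none lower (0.53), led by Chd7, Jarid2, Ezh1, a histone H3K27 methyltransferase (1.47), and Cbx2, of Polycomb complex 1 (1.44). The H3K9 methyltransferases Suv39h2 (1.11), Suv39h1 (1.09) and Setdb1 (1.06), known as barriers to reprogramming, were called higher too.

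Interferon-stimulated genes had 8 of 24 shared members called higher and 1 lower (median ratio 0.54). The pair medians were uneven, 0.08, 0.97, 0.82, 0.23 and 0.66, with the control pair nearest to 0. The SKOM Vc+ libraries lay wholly above the MEF libraries for 2 of the 24, against 30.7% of all shared genes, on values without centring. Another 7 were listed in Vc+ alone, and no ratio can be given for them. Oasl2, an antiviral protein, had values of 243, 209, 246, 173 and 1117 in SKOM Vc+ cells and 53, 17, 12, 28 and 197 in MEFs (2.24). Gbp3, an interferon-induced GTPase, had values of 60, 59, 70, 47 and 222 in SKOM Vc+ cells and 14, 5, 10, 6 and 44 in MEFs (1.98). Irf7, a transcription factor of the response, stood at 1.65, and Ifit2 was called lower (-1.56). Both settings had their highest values of Oasl2 and Gbp3 with Tet1CD. Among markers of other cell types, the neural and glial list had 3 of 8 called higher and 3 lower (-0.31). The tubulin-binding protein Stmn2 was highest, with values of 4452, 4452, 5181, 4793 and 3912 in SKOM Vc+ cells and 468, 404, 592, 394 and 523 in MEFs (2.93), and Map2 lowest (-1.80). Endothelial, adipocyte and extraembryonic endoderm lists had 1, 6 and 2 shared members and 1, 1 and 2 called lower, with none higher.

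**Figure D4:**
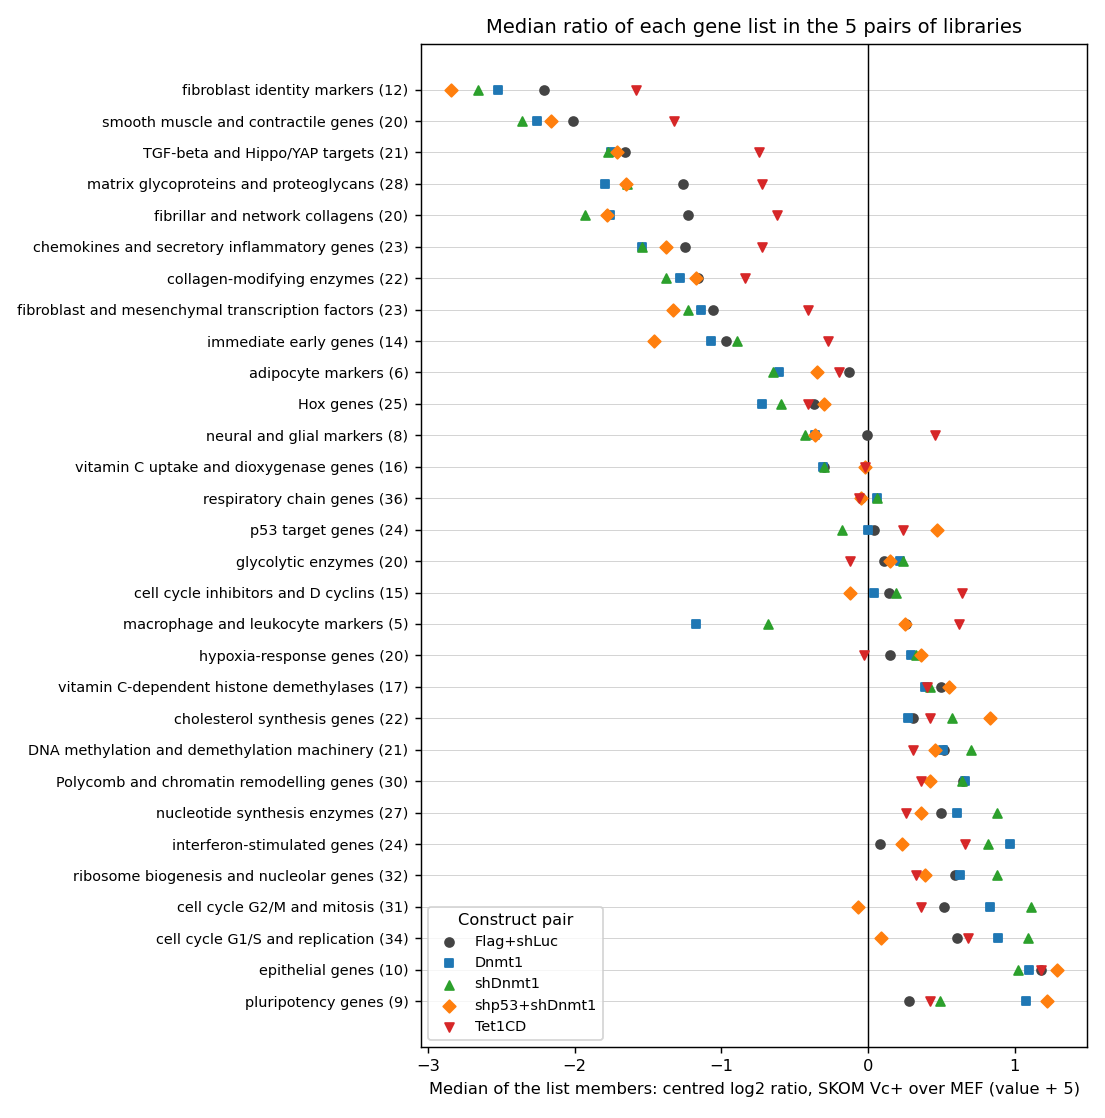
Median centred log2 ratio of SKOM Vc+ over MEF (x axis) of each gene list with at least 5 shared members, shown for the 5 pairs, with the number of shared members in brackets. Fibroblast, contractile and matrix lists lie left of 0 in every pair, with the Tet1CD pair (red) nearest to 0, and cell cycle lists lie near 0 in the shp53+shDnmt1 pair (orange).

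The same comparison for SKOM cells grown without vitamin C, which shares the MEF libraries, called 617 genes higher (6.02%) and 764 lower (7.46%) of 10242. Over genes listed in all 3 tables, the contractile list had a median ratio of -2.22 with vitamin C and -1.67 without it, and TGF-beta and YAP targets had -1.66 and -1.01. Collagen genes had -1.59 and -1.46, epithelial genes 1.07 and 1.13, and G1/S genes 0.78 and 0.60. Acta2 had a median ratio of -2.91 with vitamin C and -0.71 without it. The 18 interferon-stimulated genes listed in all 3 tables had a median of 0.66 with vitamin C and -0.29 without it. These medians share their MEF libraries and come from 3 separately normalized tables, and no test of their difference was made. Centring removed shifts of 0.24 to 0.31 in the pairs with vitamin C and of -0.3 to -0.27 in those without it. It thus lowered the ratios with vitamin C and raised those without it. The gaps between the settings therefore depend on the centring.

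The Tet1CD pair stood apart from the other 4. Its ratios had the smallest SD over genes, 0.75, against 0.91 for Flag+shLuc, 0.96 for Dnmt1, 0.98 for shDnmt1 and 0.99 for shp53+shDnmt1. Where a gene was called lower in the other 4 pairs (1274 genes, median -1.55), the median in the Tet1CD pair was -0.93 and 94.1% had a smaller ratio there. The 796 genes called higher in the other 4 had medians of 1.10 in the Tet1CD pair and 1.37 in the others, and 597 of them had a smaller ratio with Tet1CD. When each other pair was set aside in its turn, 27.0% to 61.6% of the genes had a smaller ratio in it. In the SKOM Vc+ Tet1CD library Klf4, Myc, Pou5f1 and Sox2 all had their lowest SKOM Vc+ value. Klf4 was at 3886 there, against 7995 to 10302 in the other SKOM Vc+ libraries. Pou5f1 was at 3259 against 4772 to 6109, and Sox2 at 2500 against 3885 to 4583. Tet1CD and the lower RNA of the delivered factors cannot be told apart here. The MEF Tet1CD library had also been scaled less closely to its table: 35.8% of its ranks held another value than in the MEF control, against 2.39% to 6.71% for the other constructs.

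This difference was tested gene by gene with limma on the 5 pair ratios, with 1 term for Tet1CD, 3 residual degrees of freedom and Benjamini-Hochberg adjustment over 10777 genes. The test uses differences within each table, so a difference in scale between the tables drops out of it. At an adjusted p under 0.05, the SKOM Vc+ over MEF ratio was higher in the Tet1CD pair for 369 genes (3.42%) and lower for 92 (0.854%). These counts depended on single pairs: without the Dnmt1 pair they were 46 and 15, and without the shp53+shDnmt1 pair 899 and 308. They also depended on the model. A fit with a second term for shDnmt1, which 2 of the other 4 pairs carry, gave 44 and 11, and a fit without an intensity trend 61 and 23. Of the 369 genes, 331 had a mean ratio below 0 in the other 4 pairs, and 306 had a ratio of smaller size in the Tet1CD pair than that mean. The median difference of the Tet1CD library from the mean of the other 4, on the log2 scale, was 1.14 in SKOM Vc+ cells and 0.02 in MEFs for these 369. For the 92 it was -1.23 in SKOM Vc+ cells and 0.01 in MEFs. Genes that passed as higher were chosen for that difference, which by itself favours a mean below 0 in the other 4 pairs. It also favours a ratio of smaller size in the Tet1CD pair. Those counts describe the chosen genes and test nothing. Only 1 Tet1CD pair exists, so the test assumes that it varies like the others. The spread it uses is that between 4 different constructs and not between replicates of one.

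**Figure D5:**
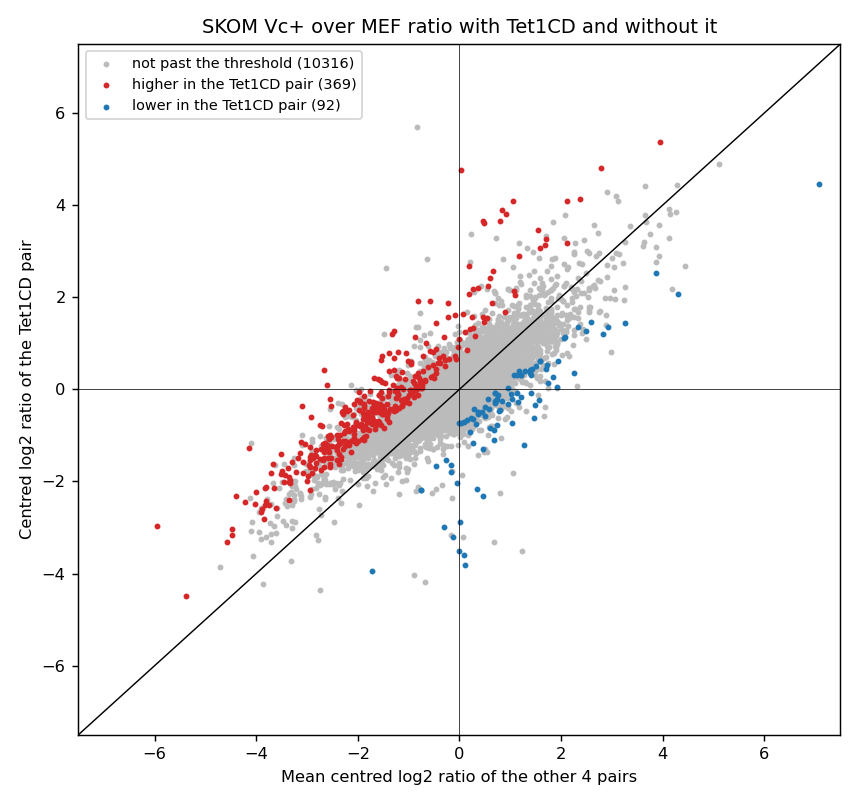
Centred log2 ratio of SKOM Vc+ over MEF in the Tet1CD pair (y axis) against the mean of the other 4 pairs (x axis) for the 10777 shared genes, with the line of equal ratios. Red points are the 369 genes with a higher ratio in the Tet1CD pair by limma, most of them left of 0, and blue points the 92 with a lower one.

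TGF-beta and YAP targets had 7 of 21 members with a higher ratio in the Tet1CD pair and none lower, among them Tgfbr3 (difference 1.98 ± 0.26, SE, limma adjusted p = 0.0158) and Crim1 (1.03 ± 0.18, limma adjusted p = 0.0285). Matrix glycoproteins had 7 of 28, chemokines and secreted factors 7 of 23, collagen-modifying enzymes 4 of 22 and collagens 3 of 20, with none lower in any of these lists, against 3.42% over all shared genes. List members with a lower ratio in the Tet1CD pair were Klf4 (difference -1.33), Itgb4 of the epithelial, Rif1 of the pluripotency and Dhcr7 of the cholesterol list. Rb1 and Cdkn1c of 15 cell cycle regulators had a lower ratio too, where Cdkn2b had a higher one (1.48). So had Slc16a3 and Slc2a1 of 20 glycolytic genes, and Egln3, Bnip3 and Slc2a1 of 20 hypoxia-response genes, where Adm and Stc2 had a higher one. Lox had a difference of 2.04 ± 0.20 (limma adjusted p = 0.00795) and Ccl2, a monocyte chemokine, of 2.55 ± 0.25 (limma adjusted p = 0.00781). Ccl2 had values of 161, 125, 139, 90 and 626 in SKOM Vc+ cells and 256, 282, 337, 198 and 226 in MEFs, so the Tet1CD library alone lay above the MEFs. Of the fibroblast markers, Pdgfra (1.90 ± 0.21, limma adjusted p = 0.012) and Mfap5 passed. Pdgfra had its lowest MEF value in the Tet1CD library. Acta2 (2.73 ± 0.48, limma adjusted p = 0.0295) and Tgfb1i1 were the 2 of 20 contractile genes that passed. The median difference was 0.0 for the G1/S list, -0.11 for the G2/M list and 0.12 for the interferon list, against 0.03 over all shared genes. Lgals3bp of the interferon list had a difference of 1.02. On simulated data the fit recovered 23% of planted log2 differences of 1 and 73% of those of 2. A member that did not pass is therefore not shown to be unchanged. Markers of some other cell types were also high in the SKOM Vc+ Tet1CD library, and others were not. The endothelial sum was lowest there, 518 against 609 to 696 in the other SKOM Vc+ libraries. So was the extraembryonic sum, 905 against 1213 to 1427. The summed values of the macrophage list were 3250 in the SKOM Vc+ Tet1CD library and 338 to 493 in the other SKOM Vc+ libraries. Those of the keratinocyte list were 4021 and 1465 to 2522, and those of the adipocyte list 3061 and 1043 to 1240. In the MEF libraries the macrophage sum was 1461 with Tet1CD and 107 to 1027 without it. The keratinocyte sum was 901 and 82 to 499, and the adipocyte sum 1821 and 1755 to 2288. The MEF sums cover 7, 1 and 8 listed genes and the SKOM Vc+ sums 5, 5 and 6. They can be compared only within a setting. Their part in the Tet1CD differences was not tested.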

How the data were processed

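RNA sequencing values of 10 mouse libraries were used. As deposited, each value is a score, a whole number that the authors had already normalized within each of 3 tables. How they did so is not given in the sources used here. Sorted values are nearly the same in all libraries of a table, and every gene reached 32 in at least 2 libraries of its table. Depth is therefore unknown, and table totals (6611237 to 6614709 in Vc+, 6184352 to 6226138 in MEFs) say nothing of reads. Bowtie, RSEM and mm10 are named, with neither version nor role, per the submitters' processing notes; RNA was extracted with Trizol and libraries made with a TruSeq kit, per the labels' protocols. Strand use is not given, so overlapping genes and close paralogs are uncertain.

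Genes were joined by identifier, giving 10777 of 12021 in Vc+ and 11152 in MEFs. Symbols and coordinates are those of the deposited tables on mm10, counted from 1, for the 1 transcript listed for each gene; 99.2% of these transcripts were found in GENCODE M21 and 73.8% had the same start and end there. A pseudocount of 5 was added, the log2 ratio of each pair was taken and the pair's median subtracted. Fold changes of low genes are understated on this scale. Calls are described in the text, and groups came from the sample titles. The limma model (limma 3.58.1 in R 4.3.3, empirical Bayes with an intensity trend) was fitted to genes with a mean of at least 10, and its code was tested on simulated data. Python 3.11.15, numpy 2.4.6 and pandas 2.3.3 were used. Promoters came from RefSeq on GRCm38.p6.

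The members, the 36 gene lists (853 places) and the tests were chosen with earlier results of these data known. Genes named are the targeted genes and factors, the 15 largest ratios in each direction among called genes with a mean of at least 50, up to 4 leading members of each list, the 8 largest Tet1CD differences in each direction, and the 8 highest genes of each table alone. Predicted genes and rows without a symbol were left out. Further list members are named to complete a count or a role and were chosen after their values were seen. Alternatives were other pseudocounts, fold limits, centring, joint quantile normalization, no pairing, a filter on low values, the exclusion of genes at the ceiling and each pair left out. The 5C library and the Tet1CD combinations without a MEF partner were not used, and all value columns of the tables were mapped to samples. A few list members are counted in their lists but not reported here by name.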

Additional observations from a re-analysis of the deposited data

Results flagged for a closer look

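The results below differ between the Tet1CD pair and the other 4 pairs by the limma test of that difference, with Benjamini-Hochberg adjustment and SE of the difference. Each is the Tet1CD pair's centred log2 ratio of SKOM Vc+ over MEF minus the mean of the other 4 pairs, and each rests on 1 Tet1CD library in each setting and on a spread taken between 4 different constructs. Of the 16 genes, 9 kept an adjusted p under 0.05 in a fit without an intensity trend, 7 with a second term for shDnmt1, and 8 to 16 with one of the other 4 pairs left out. Penk, Spp1, Kif24, Kcnt2, Slc16a3, Itgb4 and F2rl1 kept it in each of these fits.

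In all 8 of the largest differences upward the SKOM Vc+ Tet1CD library was the highest of its setting. Esm1, a proteoglycan of endothelium, had values of 60, 39, 48, 36 and 1333 in SKOM Vc+ cells and 29, 25, 27, 72 and 37 in MEFs, a difference of 4.73 ± 0.62 (limma adjusted p = 0.0157). Wdr31 had values of 110, 128, 203, 572 and 8003 in SKOM Vc+ cells and 62, 89, 104, 113 and 453 in MEFs, so it was high with Tet1CD in both settings (3.07 ± 0.59, limma adjusted p = 0.0354). Kif24, a kinesin, reached 1125 in the SKOM Vc+ Tet1CD library against 133 or less in the other SKOM Vc+ libraries (2.86 ± 0.33, limma adjusted p = 0.012). Rtkn2 differed by 3.18 ± 0.62 (limma adjusted p = 0.0376) and the pentraxin Ptx3 by 2.91 ± 0.60 (limma adjusted p = 0.0436).

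For Penk, Il1rl1 and Spp1, all lower in SKOM Vc+ cells in the other 4 pairs, the MEF Tet1CD library was also the lowest of its setting. Penk, the enkephalin precursor, had values of 98, 74, 60, 72 and 108 in SKOM Vc+ cells and 507, 454, 343, 339 and 66 in MEFs (3.09 ± 0.21, limma adjusted p = 0.00781). Spp1 had values of 662, 509, 494, 380 and 1159 in SKOM Vc+ cells and 7681, 7681, 6727, 7186 and 2399 in MEFs (2.87 ± 0.25, limma adjusted p = 0.00781). Il1rl1 differed by 2.99 ± 0.45 (limma adjusted p = 0.0223).

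Among the differences downward, 3 genes were listed at 0 in the SKOM Vc+ Tet1CD library. These were Zfp534 (-3.93 ± 0.75, limma adjusted p = 0.035), the potassium channel gene Kcnt2 (-3.67 ± 0.33, limma adjusted p = 0.00781) and Galnt13 (-2.21 ± 0.42, limma adjusted p = 0.0345). Slc16a3, a lactate exporter, had values of 120, 194, 120, 280 and 9 in SKOM Vc+ cells and 119, 133, 129, 233 and 104 in MEFs (-3.07 ± 0.27, limma adjusted p = 0.00781). F2rl1, a protease-activated receptor, differed by -2.08 ± 0.25 (limma adjusted p = 0.0155) and Acsbg1 by -2.23 ± 0.36 (limma adjusted p = 0.0244). Itgb4 (-2.61 ± 0.30, limma adjusted p = 0.012) and Bdh1, a ketone body enzyme (-2.48 ± 0.33, limma adjusted p = 0.0157), had a high MEF Tet1CD library.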

How the results depend on the processing

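Without centring, 1395 genes were called higher and 771 lower, against 724 and 1163 with it, and all 724 and 771 were shared with the larger set. A limit of 1.5-fold gave 1710 higher and 2019 lower, and a limit of 4-fold 128 and 326. Leaving out each pair gave 672 to 796 higher and 1098 to 1274 lower. A pseudocount of 1 or 32, joint quantile normalization, no pairing by construct, a mean of at least 50 and the exclusion of genes at the ceiling kept both counts within 1.5 times. The number of lists with a median below 0 was 14, and 12 to 16 under the alternatives; without centring 2 list medians turned, vitamin C uptake and dioxygenase genes (0.07 against -0.20 with it) and respiratory chain genes (0.26 against -0.02). Without pairing the p53 target list stood at -0.04 against 0.07 and the macrophage list at -0.97 against 0.17; the macrophage list also turned with a pseudocount of 32 (-0.01) and without the Flag+shLuc (-0.25), shp53+shDnmt1 (-0.21) or Tet1CD (-0.25) pair. Of the 1685 values of named genes under alternatives, none of a called gene turned and 59 moved by more than the SD over pairs. For the limma test of the Tet1CD pair (369 higher and 92 lower), the fit without an intensity trend gave 61 and 23, and a fit with terms for Tet1CD and shDnmt1 gave 44 and 11. With each pair left out it gave 46 to 899 higher and 15 to 308 lower: 133 and 28 without Flag+shLuc, 46 and 15 without Dnmt1, 107 and 30 without shDnmt1, and 899 and 308 without shp53+shDnmt1. Of 174 values of the 16 named Tet1CD differences, 36 lost the threshold and none turned. The cause was not tested. An exclusion of genes at the ceiling for the limma test was chosen after seeing the data and gave 381 and 95. Centring on cytosolic ribosomal protein genes was not run, since none was analysed here. Depth is unknown, so low values, which carry no counting error here, limit every ratio near the pseudocount, and the ceiling limits the most abundant genes.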
